A study of Rattus norvegicus with 12 samples.

Results

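The rat liver epithelial line WB-F344 was compared after 24 hr in 50 nM rapamycin or in the DMSO vehicle, with 3 plates and 3 arrays on each side. These 6 arrays were chosen by their labels from the 12 of the series. The other 6 hold the same comparison in WB311, a tumorigenic line that arose from WB-F344. WB-F344 is a diploid, non-tumorigenic epithelial line from the liver of an adult male Fischer rat, labelled as sensitive to growth inhibition by rapamycin, with a doubling time of 42 hr. All plates were grown in DMEM/F-12 medium with serum. The plates are cultures of 1 line, so the p-values measure the spread between plates and not between animals or lines. RNA was measured on Affymetrix Rat Genome 230 2.0 arrays, and the deposited values are linear intensities after robust multi-array averaging (RMA). They are bulk values, in which fewer cells in a given state and less RNA per cell cannot be told apart.

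Rapamycin binds the protein FKBP12, and the complex inhibits mTOR complex 1, a kinase that couples growth factor and nutrient signals to cell growth. Through S6 kinase and the 4E-BP proteins the kinase raises translation and ribosome production. It also favours nucleotide, lipid and amino acid synthesis, in part through the transcription factors ATF4, SREBP and HIF, and it holds back lysosome biogenesis and autophagy through TFEB. In hepatocytes and liver epithelial cells rapamycin is known to slow entry into S phase.

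The liver label was checked against markers of the cell types a liver culture could hold. Of 15 measured hepatocyte markers only 1, the carrier protein gene Ttr, reached an average of 100 in either group, and it did not pass the test (96.9 with vehicle and 103 with rapamycin). Albumin (Alb) averaged 33.2 with vehicle, near the low end of the array. Of the biliary markers, Krt7 averaged 5534 with vehicle, while Krt19 averaged 23.1 and the adhesion molecule gene Epcam 15.1. Of 13 measured mesenchymal and stellate markers 7 reached 100 in either group, and among these Vim and Col1a1 averaged 14708 and 12835 with vehicle. No endothelial marker of the 10 measured reached 100. The culture thus gave high intensities for vimentin, collagen and the epithelial keratin Krt7, while the defining hepatocyte markers were at or near the lowest intensities.

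Of 13261 probe sets with a group average of at least 100 on either side, 1658 (12.5%) passed the test, which required a Benjamini-Hochberg adjusted p under 0.05 in limma and a fold change of at least 1.2. Of these, 576 rose (4.34%) and 1082 fell (8.16%). Only such genes are said here to have risen or fallen. The changes were modest in size. The median rise was 0.57 and the median fall -0.51 on the log2 scale, and 81 rises and 54 falls exceeded 2-fold. In all 1658 the vehicle and rapamycin plates did not overlap. With 3 plates a side a call all but requires this, so it adds no support, here or for single called genes. Collapsed to 1 probe set per gene, 8228 genes were tested, of which 397 rose (4.82%) and 790 fell (9.6%). These shares are the background for the gene groups described here.

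The plates numbered 2 stood apart from the others under both treatments. Their root mean square deviation from the group mean was 0.269 (vehicle) and 0.216 (rapamycin) on the log2 scale, against 0.129 to 0.165 for the other 4 plates. The excess of 3′ over 5′ signal for Gapdh, a sign of RNA quality, was 0.343 and 0.166 in these plates and between -0.124 and -0.0432 in the others. Its part in the results was not tested. Deviations from the group means correlated most for the plates numbered 2 of vehicle and rapamycin (0.884), and at 0.588 to 0.706 among the plates numbered 1 and 3, whether or not their numbers matched. With the plate number as a block 2533 genes passed, of which 850 rose (10.3%) and 1683 fell (20.5%). These shares are the background for list counts with the block. All 1658 probe sets remained called with the block, and 1640 of them without the plates numbered 2. With 1 array left out, the count was 456 without vehicle plate 1, 271 without vehicle plate 3, 285 without rapamycin plate 1, 969 without rapamycin plate 2 and 304 without rapamycin plate 3. It was 1734 without vehicle plate 2, the highest of the 6 fits. The share of falls among calls was 65.3%, and it moved to 51.7% after cyclic loess and 51.4% after median centring. The median log2 change of all tested probe sets was -0.05 before centring, and its part in this shift was not tested.

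**Figure D1:**
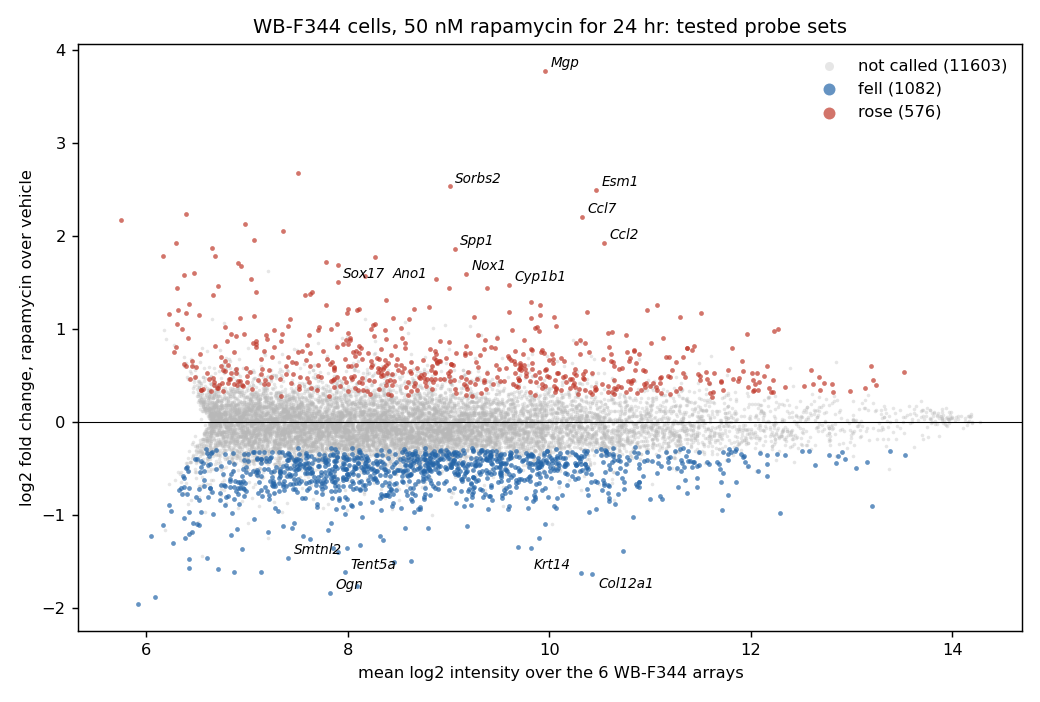
Log2 fold change with rapamycin (vertical axis) against the mean log2 intensity over the 6 WB-F344 arrays (horizontal axis), 1 point per tested probe set. The 576 probe sets that rose and the 1082 that fell are coloured, and labels mark genes with large changes. Most called changes lie within 2-fold of no change, and the largest, Mgp, stands apart at 3.78.

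Mgp, which encodes matrix Gla protein, an inhibitor of tissue calcification, gave the largest rise among the genes that averaged at least 100 in both groups. Its intensity was 265, 284 and 259 in the vehicle plates and 3709, 3727 and 3620 in the rapamycin plates. Every rapamycin plate lay far above every vehicle plate, and the plates within a group differed little. The log2 change was 3.78 ± 0.07 (SE, n = 3 plates per group, limma adjusted p = 1.63e-05), a 13.7-fold rise.

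The next rises were those of Sorbs2, Esm1, Ccl7, Ccl2 and Spp1. Sorbs2, an adaptor protein of actin stress fibres, read 191, 272 and 191 with vehicle and 1133, 1425 and 1187 with rapamycin (log2 change 2.53 ± 0.17, adjusted p = 0.00226). Esm1, a secreted proteoglycan, read 599, 767 and 460 with vehicle and 3279, 3491 and 3319 with rapamycin (2.5 ± 0.18, adjusted p = 0.00298). In both genes the vehicle plate numbered 2 was the highest of its group and still lay far under every rapamycin plate. The chemokine Ccl7 read 661, 561 and 579 with vehicle and 2856, 2701 and 2725 with rapamycin (2.20 ± 0.09, adjusted p = 0.000899). Ccl2, which also attracts monocytes, read 834, 707 and 759 with vehicle and 3195, 2606 and 2932 with rapamycin (1.92 ± 0.11, adjusted p = 0.00191). Both chemokines were lowest in the plates numbered 2 on each side, without overlap between treatments. Spp1, which encodes the matrix cytokine osteopontin, read 302, 245 and 299 with vehicle and 1098, 912 and 1056 with rapamycin (1.86 ± 0.12, adjusted p = 0.00224). Its vehicle values were again all under its rapamycin values.

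Rises of 1.31 to 1.59 on the log2 scale followed for Nox1 (an NADPH oxidase that makes superoxide), Ano1 (a calcium-gated chloride channel), Sox17 (an endoderm transcription factor), Cyp1b1, Myc, Sulf1 (a heparan sulfatase), Etv5 (an ETS factor), S100g (a calcium-binding protein) and Tcp11l2. Myc, the growth-promoting transcription factor, read 306, 333 and 296 with vehicle and 861, 858 and 824 with rapamycin (1.44 ± 0.08, adjusted p = 0.00191). The lowest rapamycin plate was well above the highest vehicle plate. Sulf1 and Tcp11l2 lost their calls without vehicle plate 3, rapamycin plate 1 or rapamycin plate 3, with adjusted p of 0.0741 to 0.0849 for Sulf1 and 0.0539 to 0.0649 for Tcp11l2. Their changes then lay between 1.27 and 1.47.

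Among the falls of genes that averaged at least 100 in both groups, Ogn, a small leucine-rich proteoglycan of the matrix, moved most. It read 503, 435 and 358 with vehicle and 121, 139 and 103 with rapamycin (log2 change -1.83 ± 0.16, adjusted p = 0.0043). Krt14, a keratin of basal epithelia, read 2123, 2159 and 2412 with vehicle and 705, 784 and 690 with rapamycin (-1.62 ± 0.09, adjusted p = 0.00191). Both genes had all rapamycin plates under the lowest vehicle plate by a wide margin. Col12a1, a fibril-associated collagen, read 2024, 2929 and 2361 with vehicle and 695, 1025 and 660 with rapamycin (-1.63 ± 0.21, adjusted p = 0.00893). Here the plates numbered 2 were the highest on both sides. Without vehicle plate 3 or rapamycin plate 1 its adjusted p was 0.0512 or 0.0508, and 2 of its 3 tested probe sets were called. Tent5a, a noncanonical poly(A) polymerase, read 435, 452 and 429 with vehicle and 136, 170 and 128 with rapamycin (-1.61 ± 0.12, adjusted p = 0.00304), while its other tested probe set was not called at -0.09. The probe sets of this gene therefore disagreed.

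The remaining large falls ranged from -1.23 to -1.46. They were those of Smtnl2, Flrt3, Ifrd1, Nrep, Fgfr3 (a fibroblast growth factor receptor), Eno3 (the muscle form of enolase), Loxl2 (a lysyl oxidase that crosslinks collagen), Lrp2 (megalin, an endocytic receptor), Creb3l1 (a transcription factor of the endoplasmic reticulum that drives collagen genes), Rpp25 and Tmcc3. Eno3 read 1272, 1331 and 1353 with vehicle and 493, 564 and 501 with rapamycin (-1.35 ± 0.08, adjusted p = 0.00205). Ifrd1 read 2833, 2463 and 2949 with vehicle and 1050, 1098 and 1004 with rapamycin (-1.38 ± 0.09, adjusted p = 0.00226). In both, the plates of a treatment lay close together and the treatments did not overlap. Loxl2, Lrp2 and Tmcc3 lost their calls in some of the fits with 1 array fewer. The adjusted p of Loxl2 was 0.0553 without vehicle plate 1, 0.0658 without vehicle plate 3 and 0.0574 without rapamycin plate 3. That of Lrp2 was 0.0619 without vehicle plate 1 and 0.10 to 0.114 without vehicle plate 3, rapamycin plate 1 or rapamycin plate 3. That of Tmcc3 was 0.0629 to 0.068 without vehicle plate 3, rapamycin plate 1 or rapamycin plate 3.

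**Figure D2:**
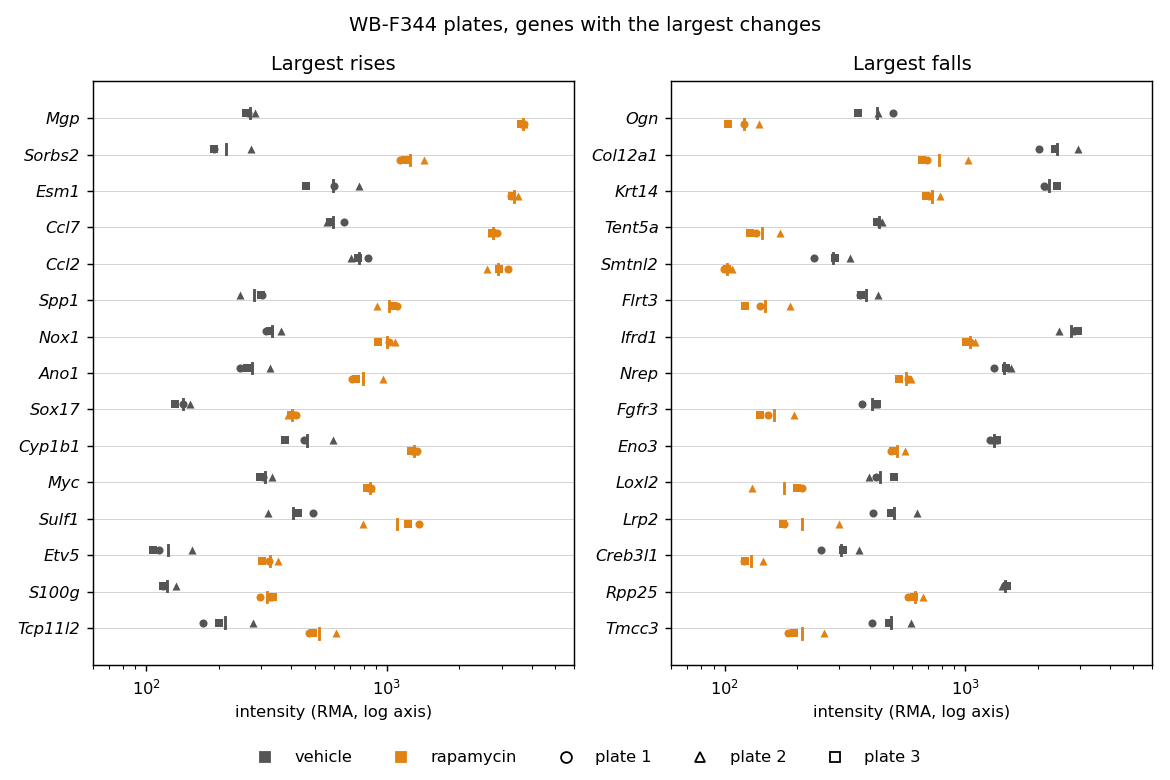
Intensity (horizontal log axis) in each of the 6 plates for the 15 genes with the largest rises (left) and the 15 with the largest falls (right) among those averaging at least 100 in both groups. Symbols are single plates, with a shape per plate number, and short bars are group means. The genes were chosen to have no overlap between vehicle and rapamycin plates.

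Genes that averaged under 100 on 1 side gave rougher sizes. Ptgs2, the inducible cyclooxygenase, read 62.4, 104 and 57.1 with vehicle and 490, 445 and 438 with rapamycin (2.67 ± 0.23, adjusted p = 0.00384). Egr2, an immediate early zinc finger factor, read 36.2, 41.7 and 38.4 with vehicle and 184, 203 and 162 with rapamycin (2.24 ± 0.11, adjusted p = 0.00155). The vehicle values of these genes sat near the floor of the array, so the folds are approximate. The membrane protease Bace2, the neuropeptide precursor Vgf and the VEGF receptor Flt1 rose by 1.78 to 2.05 as well. Rhpn2, the gap junction gene Gjb2, C1qtnf3, the desaturase Scd2 and the placental growth factor Pgf fell, with log2 changes of -1.88 to -1.37. Rhpn2 read 120, 147 and 126 with vehicle and 28.9, 35.9 and 42.7 with rapamycin.

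Genes of DNA replication were lower together. Of 41 tested, 32 fell (78.0% against the background of 9.6%) and none rose, with a median log2 change of -0.48 over the list against -0.07 over all tested genes. With the plate block 37 fell. Leaving out 1 vehicle array gave 6, 24 and 2 falls for plates 1, 2 and 3, and leaving out 1 rapamycin array gave 5, 23 and 6. The list medians centred on the 6 plates were 0.23, 0.28 and 0.17 in the vehicle plates and -0.23, -0.18 and -0.28 in the rapamycin plates, so the direction was the same on every plate. Cdt1, which licenses replication origins, read 784, 809 and 792 with vehicle and 444, 457 and 466 with rapamycin (-0.80 ± 0.07, adjusted p = 0.00353). Other falls were those of the origin recognition subunit Orc1 (-0.77), the polymerase epsilon subunit Pole2 (-0.78), the polymerase alpha subunit Pola2 (-0.62), the GINS subunit Gins1 (-0.67), the clamp loader subunit Rfc5 (-0.64), the clamp Pcna (-0.36) and all of Mcm2 to Mcm7 (-0.34 to -0.63), the helicase that unwinds DNA at the fork.

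Mitotic genes formed another such group, with 26 of 39 tested lower (66.7% against 9.6%), none higher and a median of -0.60. The block raised the count of falls to 38, and it was 9 to 15 without a plate numbered 1 or 3 and 22 or 25 without a plate numbered 2. Aurka, a kinase of the spindle poles, read 1275, 1118 and 1267 with vehicle and 656, 661 and 608 with rapamycin (-0.93 ± 0.09, adjusted p = 0.00458). Plk1, which drives mitotic entry, read 1235, 1264 and 1191 with vehicle and 641, 755 and 654 with rapamycin (-0.85 ± 0.09, adjusted p = 0.00595). Neither kinase overlapped between treatments. Cdca8 of the chromosomal passenger complex fell by 0.83 and the checkpoint kinase Bub1b by 0.72. The cyclins Ccna2 (-0.81), Ccnb1 (-0.78) and Ccnb2 (-0.68) and their kinase Cdk1 (-0.47) fell as well, as did Cdc20 (-0.81), the activator of the anaphase promoting complex.

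Promoters of these cell cycle genes hold motifs of known cell cycle factors, and 4 are shown here to give the sequence context of the genes that fell together. They are RefSeq sequences of the rat assembly GRCr8, 300 bases long with the last 50 after the transcription start, 5′ to 3′ on the gene's strand. Capitals mark the E2F words TTTCGCGC, TTTGGCGC or TTTCCCGC in the first pair, and in the second pair the cell cycle homology region (CHR, TTTGAA or TTCGAA) and the CCAAT box, each on either strand. E2F words can overlap, and then form 1 run of capitals. Cdt1 lies at chr19:67528999-67529298 (plus strand), Mcm5 at chr19:13488563-13488862 (plus strand), Plk1 at chr1:186147408-186147707 (plus strand) and Cdc20 at chr5:137255750-137256049 (minus strand).
Cdt1: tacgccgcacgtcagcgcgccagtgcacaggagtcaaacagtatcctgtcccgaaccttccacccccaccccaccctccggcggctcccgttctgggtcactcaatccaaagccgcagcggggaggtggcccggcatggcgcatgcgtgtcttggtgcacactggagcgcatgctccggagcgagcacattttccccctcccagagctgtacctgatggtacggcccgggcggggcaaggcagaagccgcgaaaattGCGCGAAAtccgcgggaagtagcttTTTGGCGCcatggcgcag
Mcm5: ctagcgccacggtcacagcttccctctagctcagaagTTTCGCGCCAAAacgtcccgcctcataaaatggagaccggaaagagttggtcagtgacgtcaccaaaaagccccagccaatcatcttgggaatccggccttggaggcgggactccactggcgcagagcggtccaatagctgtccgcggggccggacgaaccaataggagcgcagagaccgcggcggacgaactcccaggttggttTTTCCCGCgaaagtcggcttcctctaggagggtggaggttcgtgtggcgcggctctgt
Plk1: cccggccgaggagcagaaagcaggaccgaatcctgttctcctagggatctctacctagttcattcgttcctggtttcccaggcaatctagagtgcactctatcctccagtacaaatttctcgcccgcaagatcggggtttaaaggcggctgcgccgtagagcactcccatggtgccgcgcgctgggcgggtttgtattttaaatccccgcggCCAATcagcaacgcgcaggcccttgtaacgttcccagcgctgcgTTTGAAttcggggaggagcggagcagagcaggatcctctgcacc
Cdc20: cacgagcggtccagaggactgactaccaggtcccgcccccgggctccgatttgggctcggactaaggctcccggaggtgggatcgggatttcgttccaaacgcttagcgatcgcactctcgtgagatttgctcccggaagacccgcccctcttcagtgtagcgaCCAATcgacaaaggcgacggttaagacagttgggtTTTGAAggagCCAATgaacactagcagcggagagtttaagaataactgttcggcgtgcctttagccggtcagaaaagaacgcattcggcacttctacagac

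An E2F word was found in 17 of the 36 replication promoters matched (47.2%), in 4.03% of the promoters of all tested genes and in 1.82% of all RefSeq promoters of this length. Among all genes that fell the share was 7.29%, and among those that rose 0.926%. Of the 17 replication genes with the word 12 fell, and of the 19 without it 17 fell, so within the list the word did not go with more calls. Among mitotic genes, 24 of 34 promoters held a CHR (70.6%, against 13.1% of tested genes and 19.5% of all promoters) and 26 held a CCAAT box (76.5%, against 38.7% and 37.7%). Of the 24 with a CHR 13 fell, and of the 10 without it 8 fell. In Plk1 the CHR began 7 bases after the start and the CCAAT box 38 before it. A match describes letters in the window and not a bound site.

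Supply and repair of DNA followed in smaller numbers. Of 26 tested genes of nucleotide supply 8 fell (30.8% against 9.6%) and none rose (median -0.23). They included the mitochondrial one-carbon enzymes Mthfd2 (525, 629 and 558 with vehicle, 332, 347 and 320 with rapamycin, -0.77) and Shmt2 (-0.50), the ribonucleotide reductase subunit Rrm1 (-0.58) and the pyrimidine enzyme Dhodh (-0.53). Of 27 repair and checkpoint genes 9 fell (33.3%) and none rose. Among the 9 were the recombination gene Rad54l (-0.65), the nuclease Exo1 (-0.70), the uracil glycosylase Ung (-0.53) and the checkpoint kinase Chek1 (-0.42). Both counts depended on single arrays. When a plate numbered 1 or 3 was left out, 1 or 2 genes of each list fell, and without a plate numbered 2, 4 or 6 nucleotide genes and 7 or 9 repair genes fell.

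Regulators of the step from G1 to S phase moved in both directions. Of 23 tested, 3 rose (Myc, Mycn at 0.48 and Ccnd1, 13.0% against 4.82%) and 4 fell (17.4% against 9.6%). The cyclin D1 gene Ccnd1 read 1218, 1142 and 1284 with vehicle and 2308, 1654 and 2157 with rapamycin (0.74 ± 0.14, adjusted p = 0.0231). The kinase Cdk2 read 856, 707 and 785 with vehicle and 519, 477 and 521 with rapamycin (-0.63 ± 0.10, adjusted p = 0.0131). Cyclin D1 was higher, while Cdk2, cyclin E1 (Ccne1, -0.45), cyclin D3 (Ccnd3, -0.37) and the Myc-family antagonist Mxd3 (-0.71) were lower. With 1 array left out, cyclin E1 lost its call in each of the 6 fits. Cyclin D3 kept its call in 1 of the 6, cyclin D1 and Cdk2 in 2 each and Mxd3 in 5. The list had 1 rise and at most 1 fall without a plate numbered 1 or 3. Cdkn1b, the p27 inhibitor of Cdk2, was not called at 0.09 ± 0.08 (adjusted p = 0.518).

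Inhibitors of cyclin-dependent kinases and genes linked to quiescence rose more often, with 9 of 27 higher (33.3% against 4.82%) and 1 lower, Cdkn2c (-0.48). The list median was 0.09. The INK4 genes Cdkn2b (1.26) and Cdkn2a (0.96), the retinoblastoma gene Rb1 (0.54), the antiproliferative genes Tob1 (0.69) and Btg1 (0.35), Txnip (0.45) and the FOXO-linked genes Klhl24 and Ccng2 were the members that rose beside Klf2. Klf2, a factor of resting cells, read 681, 700 and 681 with vehicle and 1100, 1311 and 1162 with rapamycin (0.79 ± 0.09, adjusted p = 0.00672). Klhl24 read 496, 510 and 485 with vehicle and 864, 799 and 787 with rapamycin (0.72 ± 0.07, adjusted p = 0.00576). In these genes every treated plate exceeded every vehicle plate. The count was 3 to 5 without a plate numbered 1 or 3 and 7 or 11 without a plate numbered 2. Of 18 p53 targets only the death receptor gene Fas rose (0.92), against 3 rises after cyclic loess or median centring, 3 without vehicle plate 2 and 0 without vehicle plate 3 or rapamycin plate 1, and Plk2, Gadd45a and Mdm2 were not called at -0.25, -0.45 and 0.64. With the block 5 p53 targets rose and 2 fell, Mdm2 among those that rose (adjusted p = 0.00053) and Gadd45a among those that fell (adjusted p = 0.00543).

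**Figure D3:**
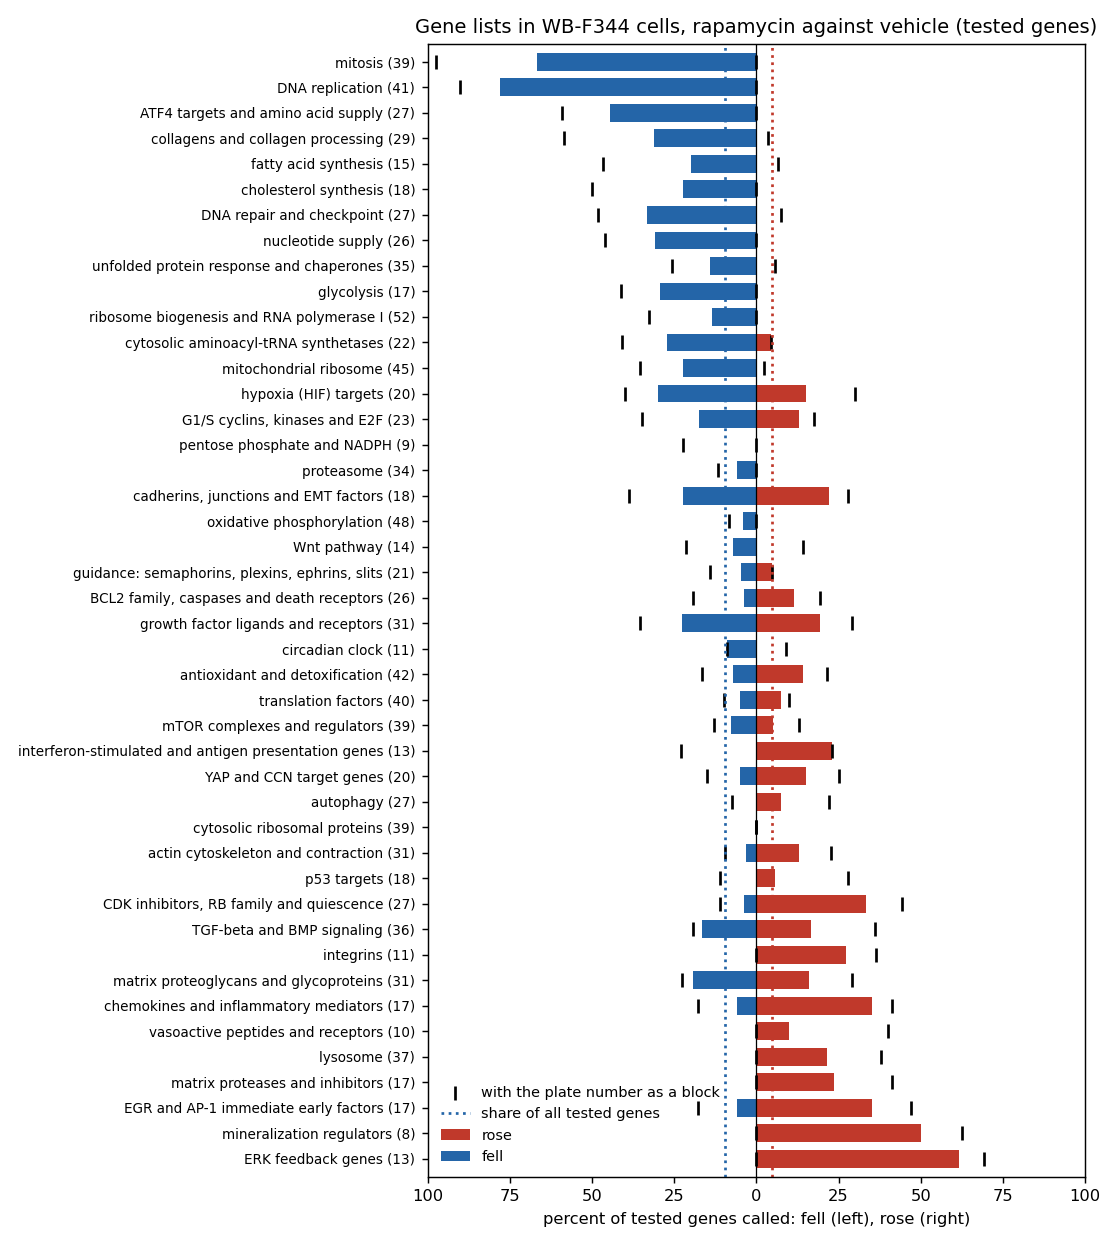
Percent of tested members that fell (bars to the left) or rose (bars to the right) with rapamycin in WB-F344, for the lists with at least 8 tested members, whose number stands in parentheses. Dotted lines give the shares of all tested genes (9.6% fell, 4.82% rose) and black ticks the shares with the plate number as a block. Replication and mitosis reach furthest to the left, and ERK feedback genes furthest to the right.

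The mTOR pathway's own components showed few changes in RNA. Of 39 tested genes of the complexes and their regulators 2 rose and 3 fell, shares near the background, with a list median of -0.00. Sgk1, a kinase activated downstream of mTOR complex 2, read 303, 317 and 257 with vehicle and 724, 679 and 662 with rapamycin (1.24 ± 0.10, adjusted p = 0.00353). Deptor, an inhibitory subunit of both mTOR complexes, read 689, 897 and 787 with vehicle and 409, 602 and 416 with rapamycin (-0.75 ± 0.18, adjusted p = 0.0454). The Rheb relative Rhebl1 rose (0.45), and Tbc1d7 of the TSC complex (-0.34) and Castor2 (-0.39) fell. The falls dropped to 0 when 1 array was left out, or to 1 without rapamycin plate 2. Akt1 was not called without the block and was called with it (-0.38, adjusted p = 0.153 without and 0.00351 with it), and the translation repressor Eif4ebp1 was not called (-0.15, adjusted p = 0.52).

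None of the 39 tested ribosomal protein transcripts passed in limma, with or without the block, nor by the methods' t-test, which is a plain test of each probe set, and after median centring 1 rose. At an unadjusted p under 0.05 there were 2, and the list median was 0.06. Rps6, the S6 kinase substrate, read 13956, 13056 and 13447 with vehicle and 14895, 14520 and 14736 with rapamycin (0.13 ± 0.07, adjusted p = 0.286). Of 52 genes of ribosome biogenesis and RNA polymerase I, 7 fell (13.5% against 9.6%), 17 did so with the block, and 3 did so after cyclic loess or median centring. Without a plate numbered 1 or 3 the count was 0 or 1, and without a plate numbered 2 it was 2 or 4. The nucleolar methyltransferase gene Fbl read 3431, 3639 and 3472 with vehicle and 2561, 2738 and 2534 with rapamycin (-0.43 ± 0.07, adjusted p = 0.0175), and the polymerase I subunits Polr1c and Polr1e each fell by 0.46. Translation factors split, with 3 of 40 higher (7.5% against 4.82%) and 2 lower (5% against 9.6%). The eIF2B subunits Eif2b2 (-0.97) and Eif2b4 (-0.48), which recharge the initiation factor eIF2, were lower. Eif4b (0.51), Eif3h (0.32) and Eif3f (0.32) were higher.

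Genes of amino acid supply that the stress factor ATF4 is known to drive came next. Of 27 tested 12 fell (44.4%), none rose and the median was -0.36, with 4 to 7 falls without a plate numbered 1 or 3 and 10 or 12 without a plate numbered 2. The serine synthesis enzymes were among the members with the smallest p, a choice that favours a low spread between plates. Psat1 read 2965, 2973 and 2954 with vehicle and 1666, 1678 and 1651 with rapamycin (-0.83 ± 0.06, adjusted p = 0.00325). Psph read 518, 517 and 492 with vehicle and 275, 282 and 251 with rapamycin (-0.92 ± 0.08, adjusted p = 0.00377). Phgdh read 2357, 2392 and 2346 with vehicle and 1527, 1510 and 1501 with rapamycin (-0.64 ± 0.06, adjusted p = 0.00536). All 3 enzymes of the pathway were thus lower in every treated plate. The stress factor gene Ddit3 read 242, 270 and 259 with vehicle and 124, 135 and 107 with rapamycin (-1.08 ± 0.11, adjusted p = 0.00538). The amino acid transporter Slc7a5 (-1.16), Nupr1 (-1.12), Trib3 (-0.93), the glutathione-degrading Chac1 (-0.58), the glutamine transporter Slc1a5 (-0.54) and asparagine synthetase Asns (-0.36) fell too.

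The tRNA synthetase list, which joins amino acids to their tRNAs, had 6 of 22 lower (27.3%) and 1 higher. Yars1 read 1026, 1136 and 1102 with vehicle and 737, 772 and 777 with rapamycin (-0.51 ± 0.07, adjusted p = 0.0121). Tars1 (-0.53), Cars1 (-0.45), Wars1 (-0.39) and Aars1 (-0.31) fell beside it with the complex subunit Aimp1 (-0.29), and Qars1 was higher (0.35). Without vehicle plate 3, rapamycin plate 1 or rapamycin plate 3 the list had 0 falls, and without any other array 1 to 3. Promoters of 3 genes with the C/EBP-ATF element are shown, since dimers of ATF4 with C/EBP factors are known to bind it. Capitals mark TGATGCAA on either strand. The windows are chr3:126795881-126796180 (plus strand) for Chac1, chr5:146819913-146820212 (plus strand) for Yars1 and chr1:208225320-208225619 (minus strand) for Cars1, from the same RefSeq set.
Chac1: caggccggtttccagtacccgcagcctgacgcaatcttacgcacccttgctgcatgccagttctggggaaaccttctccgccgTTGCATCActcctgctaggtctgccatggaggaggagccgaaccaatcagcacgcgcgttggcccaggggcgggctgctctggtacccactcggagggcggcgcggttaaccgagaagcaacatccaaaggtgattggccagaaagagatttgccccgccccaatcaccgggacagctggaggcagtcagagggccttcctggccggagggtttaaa
Yars1: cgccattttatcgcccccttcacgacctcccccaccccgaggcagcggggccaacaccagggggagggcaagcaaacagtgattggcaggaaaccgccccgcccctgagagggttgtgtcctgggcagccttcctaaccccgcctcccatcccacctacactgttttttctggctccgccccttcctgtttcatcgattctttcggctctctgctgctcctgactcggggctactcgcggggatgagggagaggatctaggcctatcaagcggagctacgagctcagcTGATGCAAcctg
Cars1: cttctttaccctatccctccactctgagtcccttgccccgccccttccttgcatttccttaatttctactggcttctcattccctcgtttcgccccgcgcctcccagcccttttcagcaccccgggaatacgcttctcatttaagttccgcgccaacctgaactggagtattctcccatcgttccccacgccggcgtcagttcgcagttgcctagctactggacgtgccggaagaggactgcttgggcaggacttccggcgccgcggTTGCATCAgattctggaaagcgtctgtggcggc

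The element was present in 5 of 24 promoters of the ATF4 list (20.8%) and 7 of 20 synthetase promoters (35%), against 0.573% of tested genes and 0.743% of all promoters. Of the 7 synthetase genes with it 4 fell, and of the 13 without it 2 fell. In the ATF4 list 2 of 5 with it and 8 of 19 without it fell. In Yars1 and Cars1 it began 39 and 18 bases after the start and in Chac1 167 before it.

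Unfolded protein response genes and chaperones fell in 5 of 35 cases (14.3% against 9.6%, median -0.23). The count was 0 without a plate numbered 1 or 3, 5 without vehicle plate 2, 1 without rapamycin plate 2 and 2 after median centring. The 5 were Creld2 (-0.55), Hyou1 (-0.47), Dnajb1 (-0.41), the endoplasmic reticulum chaperone Hspa5 (-0.36) and the mitochondrial co-chaperone Hspe1 (-0.32). Hspa5 read 7687, 8049 and 8124 with vehicle and 6165, 6137 and 6298 with rapamycin. None of these genes overlapped between treatments.

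Glycolytic genes fell in 5 of 17 cases (29.4%), with a median of -0.22 and no rise. Tpi1, triose phosphate isomerase, read 7745, 7107 and 7577 with vehicle and 5496, 5216 and 5525 with rapamycin (-0.47 ± 0.07, adjusted p = 0.0144). Lactate dehydrogenase A (Ldha) read 9439, 8599 and 8978 with vehicle and 7032, 6498 and 6929 with rapamycin (-0.40 ± 0.08, adjusted p = 0.0233). Pfkl read 332, 332 and 330 with vehicle and 227, 262 and 224 with rapamycin (-0.48 ± 0.09, adjusted p = 0.0197). The other falls were those of Pgk1 (-0.31) and the lactate transporter Slc16a1 (-0.45). Every called glycolytic gene was lower in all treated plates, by 1.24 to 1.4-fold, and the count was 0 without a plate numbered 1 or 3, 2 or 3 without a plate numbered 2 and 3 after median centring. Of 20 HIF targets 6 fell (30% against 9.6%) and 3 rose (15% against 4.82%). The collagen hydroxylases Plod2 (-0.82) and P4ha2 (-0.71), the transferrin receptor Tfrc (-0.72) and the pyruvate dehydrogenase kinase Pdk1 (-0.60) fell with Car9 and Hmox1. The mitophagy receptor Bnip3l (0.73), Ankrd37 (0.64) and the oxygen sensor Egln3 (0.46) rose.

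Lipid synthesis was lower in part. Of 18 genes of the cholesterol pathway 4 fell (22.2% against 9.6%), and 9 did so with the block. The 4 were Mvd (-0.75), Dhcr7 (-0.56), the sterol carrier Stard4 (-0.47) and Hsd17b7 (-0.42). Of 15 fatty acid genes 3 fell (20%), the desaturases Scd2, Fads2 (-0.72) and Fads1 (-0.62), and 7 did so with the block. Fads1 read 888, 1146 and 1005 with vehicle and 639, 689 and 636 with rapamycin. Neither list had a call without vehicle plate 3, rapamycin plate 1 or rapamycin plate 3, and without any other array the first had 1 to 4 and the second 2 or 3. Each list had a median of -0.27.

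Mitochondrial lists differed in how many members passed. Of 45 mitochondrial ribosome genes 10 fell (22.2%), led by Mrpl45 (1003, 1066 and 1061 with vehicle, 683, 708 and 663 with rapamycin, -0.61), and the count was 1 without a plate numbered 1 or 3, 14 when vehicle plate 2 was left out, 5 when rapamycin plate 2 was and 6 after median centring. Of 48 genes of oxidative phosphorylation 2 fell, Cyc1 (-0.41) and Ndufb9 (-0.37), a share under the background. The count was 3 without vehicle plate 2, and 0 without any other array or after median centring. Of 34 proteasome genes 2 fell (5.88% against 9.6%), Psmb10 (-0.52) and Psmc5 (-0.41). The count was 0 without vehicle plate 3, rapamycin plate 1 or rapamycin plate 3 and 1 without vehicle plate 1. None of 9 pentose phosphate and NADPH genes passed in limma, against 4 at an unadjusted p under 0.05, and the methods' t-test called 1. With the block 2 of them fell.

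Of 37 tested lysosomal genes 8 rose (21.6% against 4.82%) and none fell, with a median of 0.20, and 14 did so with the block. Leaving out 1 array gave 9 without vehicle plate 2 and 2 or 3 without any other. The aspartic protease cathepsin D (Ctsd) read 1472, 1497 and 1490 with vehicle and 2319, 2286 and 2326 with rapamycin (0.64 ± 0.06, adjusted p = 0.00538). Cathepsin F (Ctsf) read 104, 117 and 108 with vehicle and 201, 238 and 214 with rapamycin (0.99 ± 0.09, adjusted p = 0.00495). The protective protein cathepsin A (Ctsa) read 1383, 1298 and 1406 with vehicle and 2131, 1954 and 1981 with rapamycin (0.57 ± 0.08, adjusted p = 0.00971). These 3 proteases were higher in every treated plate, as were the sialidase Neu1 (0.60), the acid glucosidase Gaa (0.57), Tpp1 (0.38), Ctsl (0.38) and the membrane protein Scarb2 (0.34). Of 27 autophagy genes 2 rose (7.41% against 4.82%), Wipi1 (0.45) and Gabarapl1 (0.30), and none fell. The E-box CACGTG, part of the element bound by TFEB, was in 10 of 28 lysosomal promoters (35.7%) and in 10.5% of tested genes. Of the 10 with it 3 rose, and of the 18 without it 5 rose. The Ctsd promoter, at chr1:206968772-206969071 on the minus strand, holds it at 2 places, shown in capitals.
Ctsd: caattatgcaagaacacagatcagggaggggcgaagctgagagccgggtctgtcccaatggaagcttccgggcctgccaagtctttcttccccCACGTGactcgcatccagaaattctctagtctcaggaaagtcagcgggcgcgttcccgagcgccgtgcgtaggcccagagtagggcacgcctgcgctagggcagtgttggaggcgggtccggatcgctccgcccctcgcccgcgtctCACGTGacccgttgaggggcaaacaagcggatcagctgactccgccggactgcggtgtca

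The ERK feedback list joins inhibitors of the RAS-ERK cascade with other genes linked to it, among them Etv5 and Vgf. It had the highest share of rises of any list with 10 or more tested members. Of 13 tested 8 rose (61.5% against 4.82%), none fell and the median was 0.64. The ERK phosphatase gene Dusp6 read 3331, 3468 and 3677 with vehicle and 7261, 7037 and 6704 with rapamycin (1.0 ± 0.08, adjusted p = 0.00325). Spry2, a receptor signal inhibitor, read 741, 718 and 689 with vehicle and 1615, 1418 and 1691 with rapamycin (1.13 ± 0.09, adjusted p = 0.00343). Dusp5, a nuclear phosphatase, read 198, 240 and 208 with vehicle and 426, 499 and 412 with rapamycin (1.05 ± 0.11, adjusted p = 0.00623). In none of them did the treatments overlap. Etv5, Vgf, Rasa1 (0.84), Spry4 (0.64) and Dusp1 (0.38) completed the 8, and 5 or 6 rose without any 1 array but vehicle plate 2, without which 9 rose.

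Immediate early factors of the EGR and AP-1 families rose in 6 of 17 cases (35.3%) and fell in 1, Klf10 (-0.30). Junb, an AP-1 subunit, read 235, 226 and 241 with vehicle and 496, 462 and 437 with rapamycin (0.99 ± 0.08, adjusted p = 0.00343). Fosl1 (0.67), the nuclear receptor Nr4a1 (0.81), Maff (0.52) and Ier5 (0.32) rose with Egr2. Without a plate numbered 1 or 3 the count of rises was 2 or 3, and without a plate numbered 2 it was 4 or 5. The promoter of Egr2, the member with the largest rise, is shown because it holds a CArG box, the sequence bound by serum response factor. It is at chr20:21054392-21054691 on the minus strand, the box in capitals beginning 83 bases before the start.
Egr2: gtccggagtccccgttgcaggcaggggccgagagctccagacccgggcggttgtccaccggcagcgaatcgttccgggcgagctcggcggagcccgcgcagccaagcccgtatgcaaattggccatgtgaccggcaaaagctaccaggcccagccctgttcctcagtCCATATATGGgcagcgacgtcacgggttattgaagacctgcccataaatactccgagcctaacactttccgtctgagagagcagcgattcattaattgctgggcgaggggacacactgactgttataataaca
A CArG box was in 4 of 14 promoters of the list (28.6%), against 1.36% of tested genes and 1.64% of all promoters, and 1 of those 4 genes rose against 5 of the 10 without it.

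Chemokines and inflammatory mediators rose in 6 of 17 cases (35.3% against 4.82%) and fell in 1 (5.88% against 9.6%). Beside Ccl2, Ccl7 and Ptgs2, the membrane-bound chemokine Cxcl16 read 758, 747 and 744 with vehicle and 1553, 1516 and 1547 with rapamycin (1.04 ± 0.06, adjusted p = 0.00205). Cxcl10 (1.0) and the NF-kB inhibitor Tnfaip3 (0.70) rose, and the neutrophil chemokine Cxcl1 fell (-0.89). The list therefore held members in both directions, and 4 to 6 rose when 1 array was left out, the 4 without vehicle plate 3 or rapamycin plate 1. Of 13 interferon and antigen presentation genes 3 rose (23.1%), Ifi27 (0.66), the peptide transporter Tap1 (0.70) and B2m (0.45). Leukocyte markers were read beside these genes. Only 1 of 11 measured reached 100, the endotoxin co-receptor Cd14, which read 610, 501 and 587 with vehicle and 1181, 981 and 1207 with rapamycin (0.99 ± 0.12, adjusted p = 0.00794). The summed level of the 11 markers was 782 to 921 with vehicle and 1287 to 1565 with rapamycin. The pan-leukocyte marker Ptprc averaged 21.6 with vehicle and 22.6 with rapamycin, and the macrophage marker Cd68 30.3 and 35.3, near the lowest intensities of the array.

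Collagens and the enzymes that process them fell in 9 of 29 cases (31.0%), rose in none and had a median of -0.29. With the block 17 fell and 1 rose, and 2 or 3 fell without a plate numbered 1 or 3 and 8 or 9 without a plate numbered 2. The fibrillar collagen gene Col3a1 read 12128, 14210 and 12337 with vehicle and 6506, 7770 and 6495 with rapamycin (-0.90 ± 0.11, adjusted p = 0.00794). Col14a1 read 259, 234 and 258 with vehicle and 155, 150 and 146 with rapamycin (-0.73 ± 0.08, adjusted p = 0.00596). Col1a1 read 10353, 15944 and 12208 with vehicle and 7765, 10918 and 8388 with rapamycin (-0.50 ± 0.20), and it was not called without the block and was called with it (adjusted p = 0.159 and 0.00128). Its rapamycin plate 2 was above its vehicle plate 1, the only overlap among these 3 genes. The hydroxylases Plod2, P4ha2 and P3h1 (-0.50), the collagen chaperone Serpinh1 (-0.49) and the crosslinking enzyme Lox (-0.37) fell with Loxl2 and Col12a1.

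Other matrix genes split. Of 31 proteoglycans and glycoproteins 5 rose (Mgp, Esm1, Spp1, Lama3 and Sdc4) and 6 fell (Ogn, Fbln5, Mfap4, Thbs3, Gpc6 and Sdc1). These were 16.1% and 19.4%, against 4.82% and 9.6% of all tested genes. The laminin chain Lama3 read 202, 181 and 164 with vehicle and 418, 426 and 422 with rapamycin (1.22 ± 0.09, adjusted p = 0.00325). The elastic fibre gene Fbln5 fell by 1.18. Of 17 matrix protease genes and inhibitors 4 rose (23.5%) and none fell. The 4 were the thrombin receptor F2r (0.54), Adamts1 (0.45), Adam17 (0.40) and the plasminogen activator Plat (0.38). F2r read 9802, 10332 and 9144 with vehicle and 14205, 13645 and 14775 with rapamycin. Without a plate numbered 1 or 3 no gene of this list was called, and without a plate numbered 2, 4 or 1 were. Of 8 mineralization regulators 4 rose (50% against 4.82%) and none fell. They were Mgp and Spp1, both also counted among the proteoglycans, the phosphate transporter Slc20a1 (0.53) and the pyrophosphate-making enzyme Enpp1 (0.53). Slc20a1 and Enpp1 each kept the call in only 1 of the 6 fits with 1 array left out. Of 11 integrins and focal adhesion genes 3 rose (27.3%), all integrin chains, and none fell. Itga7 read 68.6, 63.6 and 58.1 with vehicle and 148, 190 and 152 with rapamycin (1.36 ± 0.12, adjusted p = 0.00444), Itgb5 rose by 0.77 and Itga3 by 0.80. Of 31 actin genes 4 rose (12.9% against 4.82%), Sorbs2, Actn4 (0.44), Cnn2 (0.41) and Tagln (0.41), and Smtnl2 fell (3.23% against 9.6%).

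TGF-beta and BMP signaling had 6 of 36 higher and 6 lower (16.7% each way, against 4.82% and 9.6%). The ligands moved apart. Tgfb3 read 871, 999 and 924 with vehicle and 499, 513 and 449 with rapamycin (-0.93 ± 0.09, adjusted p = 0.0051), while Tgfb1 read 394, 510 and 432 with vehicle and 712, 780 and 725 with rapamycin (0.74 ± 0.11, adjusted p = 0.013). Both differences exceeded the spread between plates. Bmp2 (-0.83), Bmp6 (-0.63), the BMP mediator Smad9 (-0.66) and the BMP targets Id2 and Id4 (-0.47) fell. Id2, an inhibitor of basic helix-loop-helix factors, read 901, 744 and 946 with vehicle and 432, 361 and 396 with rapamycin (-1.12 ± 0.12, adjusted p = 0.00623). The activin antagonist Fst (0.76) and the activin subunit Inhbb (1.21) rose, with Ltbp3 (0.52), Skil (0.46) and Tgif1 (0.40). Without a plate numbered 1 or 3 the list had 1 or 2 rises and 2 falls, without vehicle plate 2 it had 9 rises and 2 falls, and without rapamycin plate 2 it had 3 rises and 6 falls.

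Growth factors and receptors gave 6 rises (19.4%) and 7 falls (22.6%) among 31 tested, against 4.82% and 9.6% of all tested genes. Fgf1 read 69.0, 86.3 and 77.1 with vehicle and 198, 299 and 191 with rapamycin (1.54 ± 0.19, adjusted p = 0.00834). The EGF receptor gene Egfr fell (-0.55), whereas its feedback inhibitor Errfi1 rose from an average of 208 with vehicle to 352 with rapamycin, without overlap between plates (0.76 ± 0.07, adjusted p = 0.0051). Fgfr3 and Pgf had the largest falls of the list, and all 3 tested probe sets of Flt1 rose, by 1.16 to 1.78. The counts were 2 or 3 rises and 2 or 3 falls without a plate numbered 1 or 3. Igf2 was not called at 0.03 ± 0.08 (adjusted p = 0.841).

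Epithelial structure genes also moved both ways. Of 18 cadherin, junction and epithelial-mesenchymal transition genes 4 rose and 4 fell (22.2% each way, against 4.82% and 9.6%). The tight junction scaffold Tjp1 read 5006, 5531 and 4791 with vehicle and 7482, 7772 and 7272 with rapamycin (0.56 ± 0.08, adjusted p = 0.0126), and Ocln (0.38), Ctnna1 (0.34) and Ctnnd1 (0.62) rose. Gjb2, the desmosome gene Dsp (-0.55), the mesenchymal cadherin Cdh11 (-0.53) and Gjc1 (-0.39) fell. Without a plate numbered 1 or 3 none rose and 1 fell. Of 3 tested keratins Krt14 and Krt8 (-0.37) fell (66.7% against 9.6%) and Krt7 was not called (-0.18). Krt8 lost its call in each of the 6 fits with 1 array left out, and Krt14 kept it in all 6. Of 4 tested biliary and progenitor markers Spp1 rose and Cd24 fell. Cd24 read 368, 355 and 345 with vehicle and 212, 212 and 157 with rapamycin (-0.89 ± 0.13, adjusted p = 0.0124).

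The remaining lists held few calls. Of 20 YAP and CCN genes 3 rose (15%), Lats2 (0.44), Ccn1 (0.38) and Axl (0.31), and Tead2 fell (-0.46). All 4 calls were lost without a plate numbered 1 or 3. Among 42 antioxidant and detoxification genes 6 rose (14.3% against 4.82%) and 3 fell (7.14% against 9.6%). The glutathione synthesis enzyme Gclc read 1226, 1120 and 1182 with vehicle and 763, 748 and 709 with rapamycin (-0.67 ± 0.07, adjusted p = 0.0068), while Prdx5 (0.56) and Mgst2 (0.53) rose. The list had 1 to 4 rises and 1 fall when a plate numbered 1 or 3 was left out. Of 26 genes of the BCL2 family, caspases and death receptors 3 rose (Fas, Casp8 at 0.43 and Mcl1 at 0.37) and the death adaptor Fadd fell (-0.65). These were 11.5% and 3.85%, against 4.82% and 9.6% of all tested genes. The rises were 0 without vehicle plate 3 or rapamycin plate 1, 1 without vehicle plate 1 or rapamycin plate 3, and 2 or 3 without a plate numbered 2. In the guidance list Plxna2 rose (0.89) and Nrp1 fell (-0.77) among 21 tested, of 14 Wnt genes Fzd2 fell (-0.52), and of 10 vasoactive genes Ramp3 rose (0.72). Nrp1 lost its call in each of the 6 fits with 1 array left out, and Fzd2 and Ramp3 did so in each of the 4 that left out a plate numbered 1 or 3. Adm and Edn1, both vasoactive peptides, were not called without the block and were called with it (0.88, adjusted p = 0.0662 without and 0.000491 with it, and 0.71, adjusted p = 0.0834 and 0.000825). Of 11 clock genes only the repressor Cry1 passed (-0.69), and Dbp and Tef were not called at -0.17 and -0.10. Among lists described earlier, the fits without a plate numbered 1 or 3 gave 1 or 2 rises and 1 or 2 falls of HIF targets, no rise and 1 fall of translation factors, no rise of autophagy genes, 1 rise of the interferon list, 2 rises of integrins, 1 rise of actin genes, 4 rises and 1 to 3 falls of proteoglycans and 2 rises of mineralization regulators. With the plate block more members of several lists passed, as did more of all tested genes (10.3% rose and 20.5% fell). The mTOR counts (12.8% each way) and chaperone falls (25.7%) lay near or under these shares. Falls of translation factors (10%), proteasome (11.8%) and oxidative phosphorylation genes (8.33%) lay under them. So did falls of antioxidant (16.7%), BCL2 (19.2%) and autophagy genes (7.41%), and falls of the interferon (23.1%) and Wnt lists (21.4%) lay near them. The counts were 8 falls of G1/S regulators, 5 rises and 5 falls of mTOR genes, 4 falls of translation factors, 9 falls of chaperones, 6 rises of HIF targets, 16 falls of mitochondrial ribosome genes, 4 falls each of oxidative phosphorylation and proteasome genes, and 6 rises and 2 falls of autophagy genes. They were 3 falls of the interferon list, 9 rises of proteoglycans, 7 rises of matrix proteases, 7 rises of actin genes, 13 rises of the TGF-beta list, 11 falls of growth factors, 7 falls of junction genes, 5 rises and 5 falls of the BCL2 list, 7 falls of antioxidant genes and 5 rises of YAP targets. The block also gave 4 rises of vasoactive genes, 2 rises and 3 falls of Wnt genes, and 2 rises each of repair and chaperone genes. The repair and chaperone rises (7.41% and 5.71%) lay under the 10.3% of all tested genes. The guidance, YAP, chemokine, immediate early, CDK inhibitor and actin lists then had 3 falls each. These were shares of 9.68% to 17.6%, under the 20.5% of all tested genes. Outside the lists, the AMP deaminase gene Ampd3 read 253, 265 and 261 with vehicle and 565, 485 and 528 with rapamycin (1.01 ± 0.08, adjusted p = 0.00351). Prkca was not called without the block (0.38, adjusted p = 0.0576) and was called with it (adjusted p = 0.00339).

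**Figure D4:**
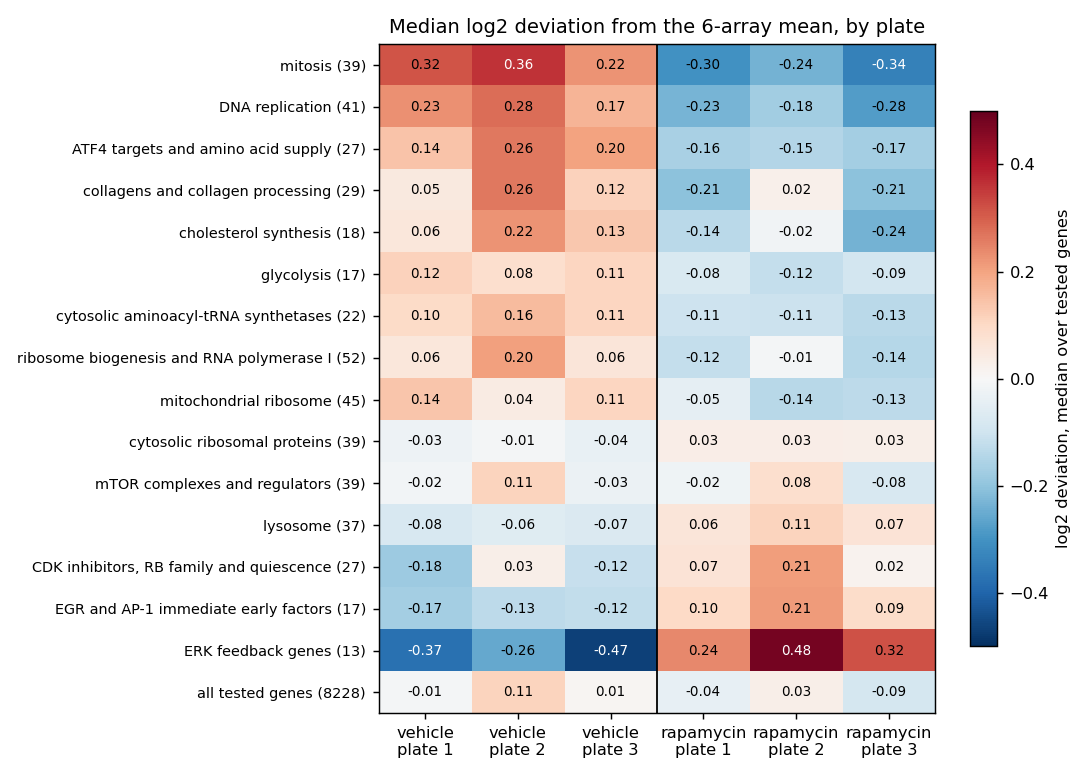
Heat map of 15 gene lists and all tested genes (rows, number of genes in parentheses) over the 6 WB-F344 plates (columns). Each cell is the median over genes of the log2 deviation from the gene's mean over the 6 arrays, red above and blue below it. Replication and mitosis are above their mean in the 3 vehicle plates and below it in the 3 rapamycin plates, and the ERK feedback and lysosomal lists are the other way round.

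The same exposure in WB311 was used to test where the WB-F344 changes were larger or smaller. The difference of the response, WB311 minus WB-F344, passed for 1517 of 14214 probe sets (10.7%) and 1078 of 8656 genes (12.5%), and with a replicate block within each line for 3229 probe sets. All 12 arrays share 1 variance per probe set in this test, although WB-F344 plates had the larger spread (median SD 0.154 and 0.130, against 0.0782 and 0.0642 in WB311). Among replication genes 32 of 41 differed, of which 31 had the less negative response in WB311, where the list median was 0.01. Among mitotic genes 31 of 41 differed, all in that direction, with a median of 0.08 in WB311. Cdt1 had a log2 change of -0.80 in WB-F344 against -0.04 in WB311 (difference 0.77, adjusted p = 0.000213). Plk1 changed by -0.85 and 0.01 (difference 0.86, adjusted p = 0.000523). These groups thus had lower intensities with rapamycin in WB-F344 and medians near 0 in WB311.

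Collagens differed in 13 of 29 cases and ERK feedback genes in 8 of 14, against 12.5% of all genes, with WB311 medians of 0.14 and 0.13. Lysosomal genes differed in 6 of 37, a share near that of all genes, with a WB311 median of -0.00. Ctsd changed by 0.64 in WB-F344 and 0.16 in WB311 (adjusted p of the difference = 0.00525). In other groups few or no differences passed, though at 12.5% over all genes lists of this size would hold few in any case. None of 22 tRNA synthetases, 1 of 17 glycolytic genes, 1 of 18 cholesterol genes and 1 of 15 fatty acid genes differed. The list medians were -0.21 in WB-F344 and -0.18 in WB311 for the synthetases, -0.22 and -0.22 for glycolysis, -0.27 and -0.40 for cholesterol and -0.27 and -0.31 for fatty acids. Tpi1 changed by -0.47 in both lines (difference -0.01 ± 0.08). In the ATF4 list 8 of 29 differed, 4 in each direction, and the medians were -0.36 and -0.24.

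The 30 genes with the largest changes in WB-F344 all differed between the lines by this test. They were chosen by their size in WB-F344, which is part of the difference, so that count is a description. With rapamycin Mgp averaged 3685 in WB-F344 and 345 in WB311, where its log2 change was 0.45 (difference -3.32). Spp1, which rose in WB-F344, changed by -0.51 in WB311 (difference -2.37), and Smtnl2 and Col12a1, which fell in WB-F344, changed by 0.71 and 0.59 (differences 2.17 and 2.22). For these 3 genes the changes in the lines lay on opposite sides of 0. Myc and Sox17 changed by 0.50 and 0.49 in WB311, in the same direction as in WB-F344 and by less. In 8 of the 30 genes, among them Esm1, Ccl7 and Nox1, WB311 averaged under 100 with both treatments, so its change there rests on values near the low end of the array.

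**Figure D5:**
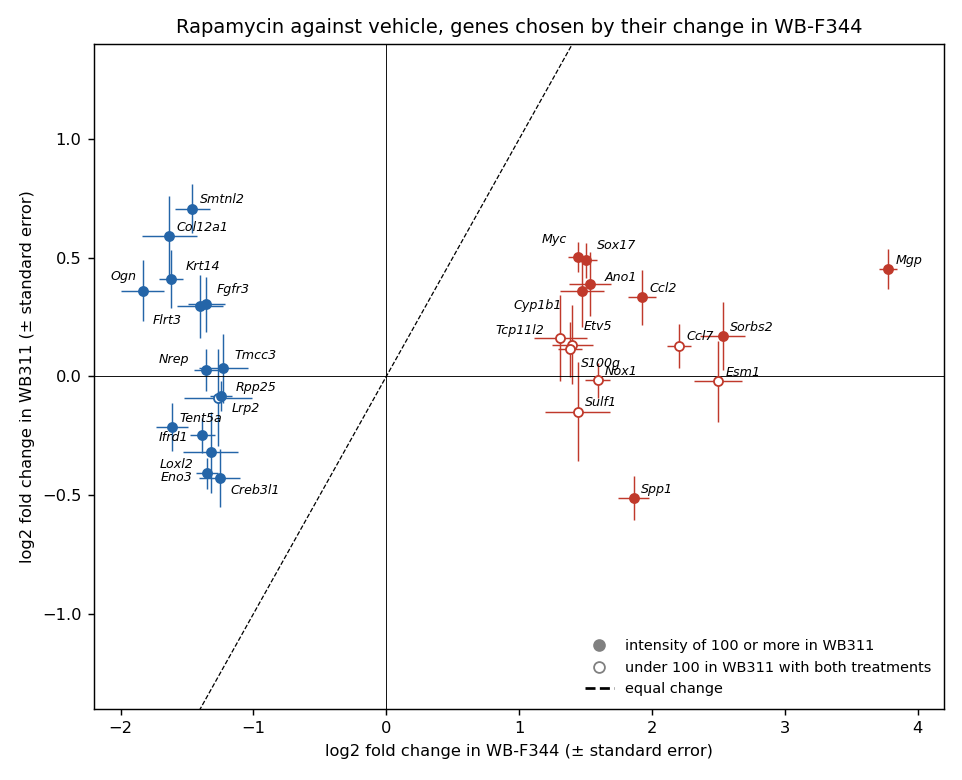
Log2 change with rapamycin in WB-F344 (horizontal axis) and WB311 (vertical axis) for the 30 genes with the largest changes in WB-F344, with standard errors. Open circles average under 100 in WB311 with both treatments, and the dashed line marks equal change. The points lie to the left and right, between -0.51 and 0.71 on the WB311 axis, and Mgp is furthest out at 3.78 on the WB-F344 axis.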

How the data were processed

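RNA from 12 plates, 3 in each of 4 groups, was hybridised to Affymetrix Rat Genome 230 2.0 arrays, 1 array a plate. The deposited values are linear intensities to which the authors had applied RMA, the version of which is not given in the sources used here. Intensities were analysed on the log2 scale, and the 57 control probe sets were left out of 31099. Of the 31042 others, 20826 had 1 gene symbol in the array's annotation, 436 several and 9780 none, and symbols were updated through RefSeq gene identifiers (GRCr8). A probe set was tested if either group averaged at least 100, as in the study's methods. Rapamycin was set against vehicle on the 6 WB-F344 arrays with limma 3.58.1 in R 4.3.3 (lmFit, eBayes, Benjamini-Hochberg over all tested probe sets), and a call needed an adjusted p under 0.05 and a fold change of at least 1.2. The difference between lines is the interaction in a fit of all 12 arrays. A gene is represented by its probe set of highest mean log2 intensity. Of 1658 called probe sets 229 had no single symbol and are not named. Of 1992 genes with several tested probe sets, 84 had all called, 287 some, and none had calls in both directions.

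Plate numbers in the labels are shared by the groups. Deviations from the group means correlated at 0.706, 0.884 and 0.588 over tested probe sets for plates 1, 2 and 3 of vehicle and rapamycin, and at 0.638 and 0.611 for the unlike pairs of plates 1 and 3. All like-numbered pairs correlated above 0, and the numbers were used as a block. Deviations within a group sum to 0. With the plates numbered 2 apart on both sides, plates 1 and 3 therefore tend to correlate above 0. Their values give no ground for pairing by number. Only the plates numbered 2 stood apart from the unlike pairs, and the labels state no pairing. The fit without the block is the one reported. The block is given where it changes the call of a gene described or moves a list count by over 1.5 times. Some moves of a list by a single gene are left out. The 45 gene lists, the 5 marker lists and the comparison itself were chosen with earlier results of these data known, so counts over lists are descriptions.

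Genes named are the 15 largest rises and 15 largest falls with at least 100 in both groups and no overlap between plates, up to 5 more each way with under 100 in 1 group, up to 4 members of each list by smallest p, and genes the study names from these arrays, which it chose on these samples (18 of 19 were found). Other list members were named after their values were seen. Promoters are RefSeq GRCr8 windows at the first listed start of a gene, matched for 6980 of 8228 tested genes, and motifs were searched on both strands. Settings tried were the plate block, plates 2 as a block or left out, all 12 arrays, other intensity filters, cyclic loess and median centring, an intensity trend, the fold filter before adjustment, the methods' t-test, and each array left out. The fits were tested on simulated data. Tables and figures were made with Python 3.11.15, pandas 2.3.3, numpy 2.4.6 and matplotlib 3.10.9. The number of arrays limits the precision, with a median standard error of 0.114 on the log2 scale.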

Additional observations from a re-analysis of the deposited data

Results flagged for a closer look

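For each of the 30 genes with the largest changes in WB-F344, the response differed between the lines by the interaction test over all 12 arrays, with Benjamini-Hochberg adjustment in limma. The genes were chosen by their size in WB-F344, which enters the difference. Values are the log2 change in WB311 minus that in WB-F344.

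For the genes that rose in WB-F344 the differences were negative. They were -3.32 for Mgp, -2.36 for Sorbs2, -2.52 for Esm1, -2.07 for Ccl7 and -1.59 for Ccl2. Spp1 gave -2.37, Nox1 -1.61, Ano1 -1.15, Sox17 -1.01 and Cyp1b1 -1.12. Those of Myc, Sulf1, Etv5, S100g and Tcp11l2 were -0.94, -1.59, -1.27, -1.27 and -1.15.

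For the genes that fell in WB-F344 the differences were positive. They were 2.20 for Ogn, 2.22 for Col12a1, 2.03 for Krt14, 1.4 for Tent5a and 2.17 for Smtnl2. Flrt3 gave 1.70, Ifrd1 1.14, Nrep 1.38, Fgfr3 1.66 and Eno3 0.94. Those of Loxl2, Lrp2, Creb3l1, Rpp25 and Tmcc3 were 1.0, 1.18, 0.83, 1.16 and 1.26.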

How the results depend on the processing

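More probe sets passed with the plate number as a block (4060, of which 1495 rose and 2565 fell, against 1658, 576 and 1082), with the plates numbered 2 as a replicate block (4031, 1480 and 2551), without both plates numbered 2 (3827, 1428 and 2399), with all 12 arrays in 1 fit (3000, 1005 and 1995) and with the fold filter before the adjustment (2786, 944 and 1842). Cyclic loess raised the count of rises to 879. Leaving out each WB-F344 array in turn gave 271 to 1734 calls, 113 to 760 rises and 154 to 974 falls, and 83 to 163 calls over 2-fold against 135. The other settings kept these counts within 1.5 times, from 1221 calls with no intensity filter to 2035 with the methods' t-test at equal variances. That test called 2528 probe sets before adjustment, and 2315 with unequal variances, where 1448 passed after it. The difference between lines passed for 1517 probe sets, for 3229 with a replicate block within each line, for 2974 without the WB-F344 plates numbered 2 and for 989 to 1879 without 1 array. No called change reversed its direction in any setting run, while Igf2, which was not called in any, went from 0.03 to -0.01 without vehicle plate 1.

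Of 214 named genes the plate block ended no call and added 21. Beside the calls given in the report with their blocked values (Mdm2, Gadd45a, Akt1, Col1a1, Adm, Edn1 and Prkca, which were also called without both plates numbered 2 and with all 12 arrays), it changed no other call of a gene described there. Without vehicle plates 1, 2 and 3 the calls of 73, 12 and 95 of these genes ended, and without rapamycin plates 1, 2 and 3 those of 92, 41 and 86. Of the 1658 probe sets, 227 were called in every fit that left out 1 array. The cause was not tested. Each side holds 3 plates of 1 line, and values near the low end of the array give rough folds.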
